A study of Mus musculus with 48 samples.

Results

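Genes of the unfolded protein response were followed in the hippocampus of young adult mice whose mothers had drunk lead, manganese or both. The set had 10 members, taken by name from the table of 57126 gene identifiers: Hspa5, Hsp90b1, Pdia4, Dnajb9, Herpud1, Manf, Xbp1, Atf4, Ddit3 and Trib3. All 10 were found, and 9 passed the filter on low counts. Trib3 did not pass. The symbol Ddit3 belonged to 2 identifiers, of which ENSMUSG00000025408.16 held all 15610 counts and was used. Their loci overlap, so reads in a shared stretch may have gone uncounted.

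The animals were 48 outbred CD-1 mice, 6 in each of 8 groups, aged 2 months. In each sex there were controls, animals exposed to lead (Pb, 100 ppm), animals exposed to manganese (Mn, 2 g/L) and animals exposed to both (Pb+Mn). Dams received the metals in their water, starting 2 weeks before mating and ending at weaning on day 21, which made 8 weeks. The offspring were therefore exposed through the mother and had been weaned well before sampling. Poly(A) RNA of the hippocampus, a brain region of memory and social behaviour, was sequenced once per animal. The labels do not say which animals were littermates, so the tests rest on the variation among animals, and that among litters is unknown.

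The unfolded protein response adjusts the protein-folding capacity of the endoplasmic reticulum (ER) to its load. Sensors in the ER membrane act through 3 transcription factors: ATF6, the spliced form of XBP1, and ATF4, whose translation rises when the kinase PERK slows general protein synthesis. ATF6 and XBP1 raise ER chaperones and degradation factors, and ATF4 raises amino acid metabolism genes, Ddit3 and Trib3. Gene counts measure the total mRNA of each gene, so the splicing of Xbp1 and the translation of Atf4 were not measured.

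The 3 promoters shown here hold the DNA elements by which this response is classically read. Each sequence is the 250 bases before the RefSeq start in GRCm38.p6, written 5′ to 3′ on the strand of the gene, with the fixed letters of each element in capitals. Hspa5 lies at chr2:34771840-34772089 on the plus strand, Hsp90b1 at chr10:86705445-86705694 on the minus strand and Herpud1 at chr8:94386179-94386428 on the plus strand.
Hspa5: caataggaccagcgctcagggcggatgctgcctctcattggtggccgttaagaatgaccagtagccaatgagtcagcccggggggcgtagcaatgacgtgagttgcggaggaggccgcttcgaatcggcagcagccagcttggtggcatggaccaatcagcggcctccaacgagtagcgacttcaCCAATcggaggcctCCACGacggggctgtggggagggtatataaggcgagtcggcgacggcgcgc
Hsp90b1: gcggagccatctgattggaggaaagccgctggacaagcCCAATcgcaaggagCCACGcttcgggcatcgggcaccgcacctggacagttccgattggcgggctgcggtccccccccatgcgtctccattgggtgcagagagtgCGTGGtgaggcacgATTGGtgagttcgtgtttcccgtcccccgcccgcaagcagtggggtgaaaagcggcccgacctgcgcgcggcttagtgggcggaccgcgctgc
Herpud1: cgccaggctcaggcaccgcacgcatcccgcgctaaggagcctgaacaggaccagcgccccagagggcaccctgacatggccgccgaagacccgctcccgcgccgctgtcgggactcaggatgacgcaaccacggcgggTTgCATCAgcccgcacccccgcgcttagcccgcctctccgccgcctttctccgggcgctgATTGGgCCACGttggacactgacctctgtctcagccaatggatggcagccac

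The ER stress response element (ERSE) was searched as CCAAT, then 9 bases of any kind, then CCACG, on both strands, from 250 bases before to 50 bases after each start. It occurred in 39 of 32851 windows (0.119%). Of the 9 members with a window (Manf has none in the table), Hspa5 held 1 match, from -65 to -47, and Hsp90b1 held 2, from -212 to -194 and, on the opposite strand, from -107 to -89. Among 13 other ER chaperone genes with a window, 6 held it: Calr, Canx, Creld2, Dnajc3, Ero1b and Pdia6. The matches of 4 of these genes are set side by side to show how far the spacer varies while the capitals stay fixed.
Hspa5: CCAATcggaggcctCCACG
Hsp90b1, first match: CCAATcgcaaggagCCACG
Hsp90b1, second match: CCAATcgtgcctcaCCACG
Calr: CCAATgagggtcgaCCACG
Pdia6: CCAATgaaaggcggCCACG

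The shorter ERSE-II, searched as ATTGG, then 1 base of any kind, then CCACG, occurred in 12 windows (0.0365%), among them that of Herpud1 from -52 to -42. The core of the amino acid response element bound by ATF4, searched as TGATGNAA, occurred in 1304 windows (3.97%). It was found in Herpud1 and Trib3 and in 7 of 17 other targets of ATF4 and CHOP (the product of Ddit3), but it is short and common. The core TGACGTGG occurred in 222 windows (0.676%) and in no member. Some of these elements overlap in sequence, since ERSE and ERSE-II both hold CCACG, and the ATTGG of ERSE-II is the reverse complement of CCAAT. The matches describe letters only.

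Levels are given as CPM, counts scaled to a common library total after TMM normalization. Library totals ran from 6.27 to 27.6 M counts, with a median of 15.1 M. Per kilobase of transcript, the mean over 48 animals fell in an order led by the ER chaperones. Hspa5, which encodes the ER chaperone BiP, stood at 142 CPM per kb ± 30.3 (SD, n = 48). Hsp90b1, which encodes the ER chaperone GRP94, followed at 94.1 ± 17.3 CPM per kb. Xbp1 (58.7 ± 9.11), Atf4 (51.1 ± 11.6) and Manf (38.1 ± 10.4 CPM per kb) came next, and neighbours among these 3 differed by less than the sum of their SDs. Manf encodes a secreted ER-resident neurotrophic factor. Herpud1, a component of ER-associated degradation, had 26.2 ± 3.85 CPM per kb and the disulfide isomerase gene Pdia4 had 26.0 ± 5.21. Ddit3, which encodes the transcription factor CHOP, had 22.9 ± 4.78 and the BiP co-chaperone gene Dnajb9 had 16.2 ± 1.80 CPM per kb. Neighbours from Herpud1 to Ddit3 did not differ beyond their spread. The lower order depends on the transcripts counted: with the median over all annotated transcripts, Manf came to 112 and Dnajb9 to 28.0 CPM per kb, in places 3 and 6 of 10.

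Trib3, a pseudokinase gene induced by ATF4 and CHOP, was near the limit of counting. Its mean level was 0.159 CPM per kb, with a median of 5 counts per library and a range of 1 to 17. Without the filter, the smallest p of Trib3 over 19 comparisons was 0.045, for female Pb+Mn against Mn (log2 difference 1.02 ± 0.50 SE, edgeR adjusted p = 0.93).

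**Figure D1:**
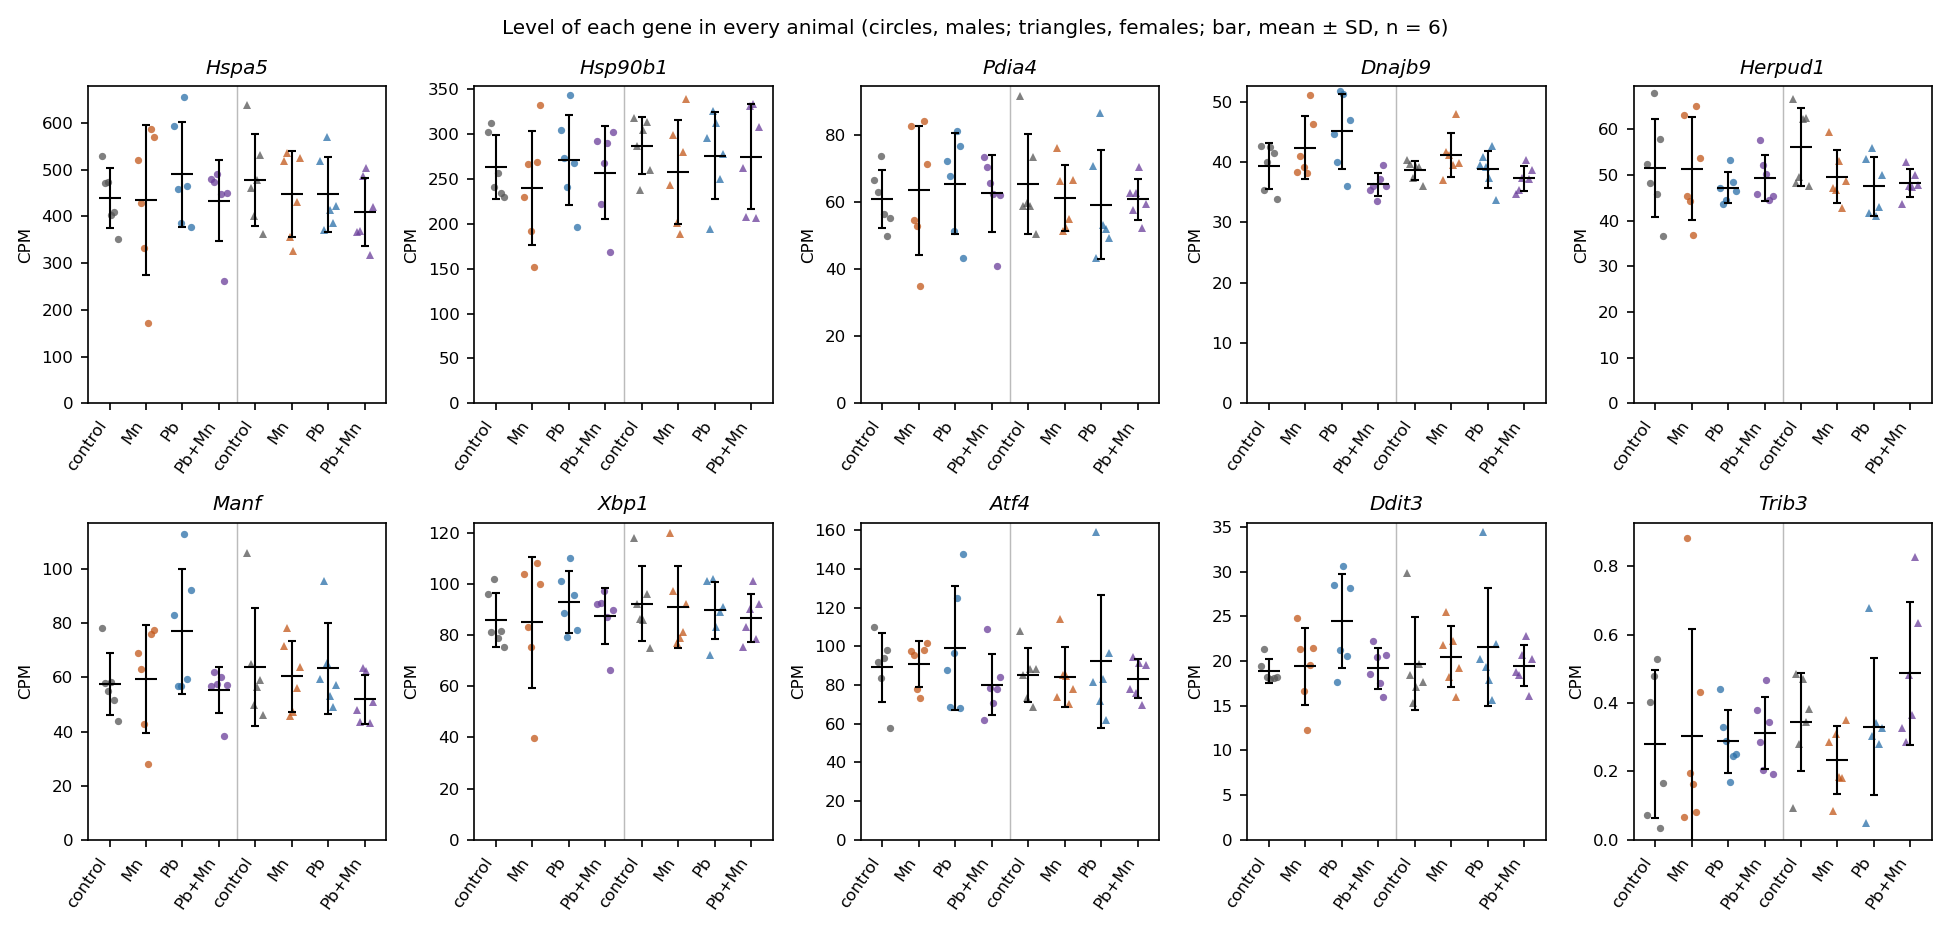
Level of each of the 10 genes in CPM (y axis, from 0) in the 8 groups (x axis); points are animals, circles for males and triangles for females, and bars are the mean ± SD of 6 animals. Hspa5 in 1 male Mn animal sits at 171 CPM, below the other 5 at 332 to 587 CPM.

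No member passed the test over all genes in any comparison. The quasi-likelihood test of edgeR, with Benjamini-Hochberg adjustment over 16360 genes, called 0 of 9 members in each of 19 comparisons, at a threshold of 0.05. Of all genes tested it called 0.0% in 17 comparisons, 0.0428% for female against male control and 0.0917% for females against males over all exposures. At an unadjusted p under 0.05, 9 of 171 member tests passed, beside 4.98% of 310840 tests over all genes. Limma voom gave 7 with none called. DESeq2 gave 9 and called 1, described below.

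In males, all 9 estimates for manganese alone were near 0. The median log2 difference from control was 0.02, against -0.01 over all genes, and members ran from -0.13 (Hsp90b1) to 0.10 (Dnajb9). None passed an unadjusted p of 0.05, where 1.92% of all genes did. For Hspa5 the 6 male control animals had 352 to 530 CPM with a median of 441, and the 6 male Mn animals had 171 to 587 with a median of 474. The log2 difference was -0.02, with a 95% interval of -0.40 to 0.37. For Xbp1 the interval was -0.30 to 0.27 and for Dnajb9 it was -0.06 to 0.27, which are the differences that 6 animals a group leave possible.

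Male Mn animal 4 had the lowest mean deviation of the members from the group mean of all 48 animals. Its Hspa5 was at 171 CPM, its Xbp1 at 39.7 against 75.2 to 108 in the other 5, and its Manf at 27.9 against 42.8 to 77.7. All 9 members lay below their group mean, with a mean of -0.686 log2 units. Its total of 12.4 M counts and its length trend (defined below) lay within the range of the other male Mn animals. Of 11 marker lists, 6 had sums outside the range of the other 5 animals. Higher were those of neurons (16100 CPM against 11300 to 15200), dentate granule cells (565 against 399 to 500), astrocytes (8300 against 6500 to 7610) and choroid plexus (1940 against 80.2 to 1790). Lower were those of oligodendrocytes (7980 against 8420 to 11700) and endothelium (167 against 178 to 250). Their part in the low values was not tested. Without that animal, the log2 differences from control were 0.15 for Hspa5, 0.13 for Xbp1 and 0.18 for Pdia4, all with an edgeR adjusted p of 1.0.

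In males exposed to lead, 8 of 9 estimates lay above control, with a median of 0.15 against 0.01 over all genes. Dnajb9, Ddit3 and Manf had an unadjusted p under 0.05 with higher levels, as 7.65% of all genes did. Dnajb9 had 33.8 to 42.7 CPM in male controls (median 40.8) and 36.0 to 51.7 in male Pb animals (median 45.8). Its log2 difference was 0.19 ± 0.08 (SE), with 5 of 6 Pb animals above the control mean and an edgeR adjusted p of 0.40. Ddit3 had 18.0 to 21.4 CPM in controls and 17.7 to 30.6 in Pb animals, with medians of 18.2 and 24.7. The Ddit3 difference was 0.37 ± 0.16 (adjusted p = 0.40). Within the Pb group, animals 1, 4 and 6 had 28.5, 30.6 and 28.2 CPM of Ddit3, while the other 3 had 17.7 to 21.2, inside or next to the control range. Manf split the same way, at 83.2, 113 and 92.2 CPM in those 3 animals and 56.8 to 59.5 in the others. Its difference was 0.42 ± 0.20 (adjusted p = 0.43). Without animal 6, Dnajb9 alone was under an unadjusted p of 0.05 in the edgeR test, with Ddit3 at 0.052 and Manf at 0.096, and the number of all genes under it fell from 1886 to 783.

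Herpud1, in contrast, had 43.6 to 53.2 CPM in male Pb animals and 36.6 to 67.9 in controls, a log2 difference of -0.13 ± 0.12. Hspa5 (0.15 ± 0.19), Hsp90b1 (0.05 ± 0.16), Pdia4 (0.10 ± 0.17), Xbp1 (0.11 ± 0.14) and Atf4 (0.15 ± 0.18) all had intervals that held 0. A measure of transcript length moved with this group. For each library, the slope of log2 CPM, relative to the gene's mean, was taken on log2 transcript length over 10206 genes. A negative slope means that short transcripts took a larger share. The male Pb mean was -0.111 ± 0.166 (SD), with animal 6 at -0.415, and the male control mean was 0.00247 ± 0.0798. The 10 ribosomal protein genes summed to 4990 CPM in male Pb animal 6 and to 1590 to 2790 in the other 5, and the blood markers to 722 against 235 to 541. Marker genes also differed in the test of the whole group, animal 6 included. At an unadjusted p under 0.05 all 10 ribosomal protein genes were higher in male Pb animals than in control (median log2 difference 0.76), as were 3 of 5 tested blood genes (median 1.36). In controls the blood sum was 136 to 244 CPM and the ribosomal protein sum 1360 to 2090 CPM, both overlapping the male Pb range. At the same threshold 3 of 6 dentate granule cell genes and 3 of 6 meningeal genes were lower. Of all 16360 genes, 1886 were under it in either direction, and 7.65% were higher. Sums of other lists shifted with overlapping ranges. Choroid plexus had a median of 1560 CPM (191 to 6710) in male Pb animals against 224 (51.5 to 4520) in controls. Oligodendrocytes had 11400 (6730 to 16300) against 7940 (5780 to 14800), and thalamus and habenula 207 (109 to 675) against 340 (155 to 871). The part of all these in the member differences was not tested. With the slope as a covariate, the male Pb differences were 0.16 for Ddit3, 0.19 for Manf and 0.17 for Dnajb9, with adjusted p from 0.88 to 0.94.

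The combination against lead alone gave the lowest p of any member. Dnajb9 had 33.6 to 39.5 CPM in male Pb+Mn animals (median 36.1) against 36.0 to 51.7 in male Pb animals. All 6 Pb+Mn animals lay below the Pb mean, and the ranges overlapped because Pb animal 5 had 36.0. The log2 difference was -0.31 ± 0.08, with an interval of -0.47 to -0.15, an unadjusted p of 0.0003 and an edgeR adjusted p of 0.11. Manf (-0.48 ± 0.20, adjusted p = 0.17) and Ddit3 (-0.35 ± 0.16, adjusted p = 0.19) were lower in the same sense, again with all 6 animals below the Pb mean. These 3 members of 9 with lower levels stand beside 13.9% of all genes at the same unadjusted threshold. DESeq2 called Dnajb9 here (-0.32, adjusted p = 0.045), as it did 326 of the 11602 genes that its own filter kept. The DESeq2 unadjusted p of Dnajb9 was 6.5e-05, against 0.0003 in edgeR. The DESeq2 adjustment covered those genes only, where that of edgeR covered 16360. The part of each in the call was not tested. Without male Pb animal 6, Dnajb9 was the 1 member under an unadjusted p of 0.05, with Manf at 0.054 and Ddit3 at 0.069 in the edgeR test, and the number of all genes fell from 3643 to 1323.

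The length slope differed in this comparison too, at 0.0492 ± 0.0478 in male Pb+Mn animals. All 10 ribosomal protein genes were lower than in male Pb animals, and 4 of 6 dentate granule cell and 3 of 6 meningeal genes higher, at an unadjusted p under 0.05. Of all 16360 genes, 3643 were under it in either direction, and 13.9% were lower. The part of these marker genes was not tested. With the slope as a covariate, Manf came to -0.15 and Ddit3 to -0.06, while Dnajb9 stayed at -0.27 (unadjusted p = 0.0016, adjusted p = 0.90). Dnajb9 was also lower against male Mn (-0.22 ± 0.08, adjusted p = 0.95), the only member under an unadjusted p of 0.05 there, where 1.91% of all genes were lower. It was also the only such member in the male Pb by Mn interaction (-0.42 ± 0.11, adjusted p = 0.37). There 7.78% of all genes had a negative term with an unadjusted p under 0.05. These comparisons share animals with the one above. Against male control, Dnajb9 in male Pb+Mn animals differed by -0.12 ± 0.08. Members in male Pb+Mn against control had a median of -0.03, with none under an unadjusted p of 0.05 (2.24% of all genes).

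**Figure D2:**
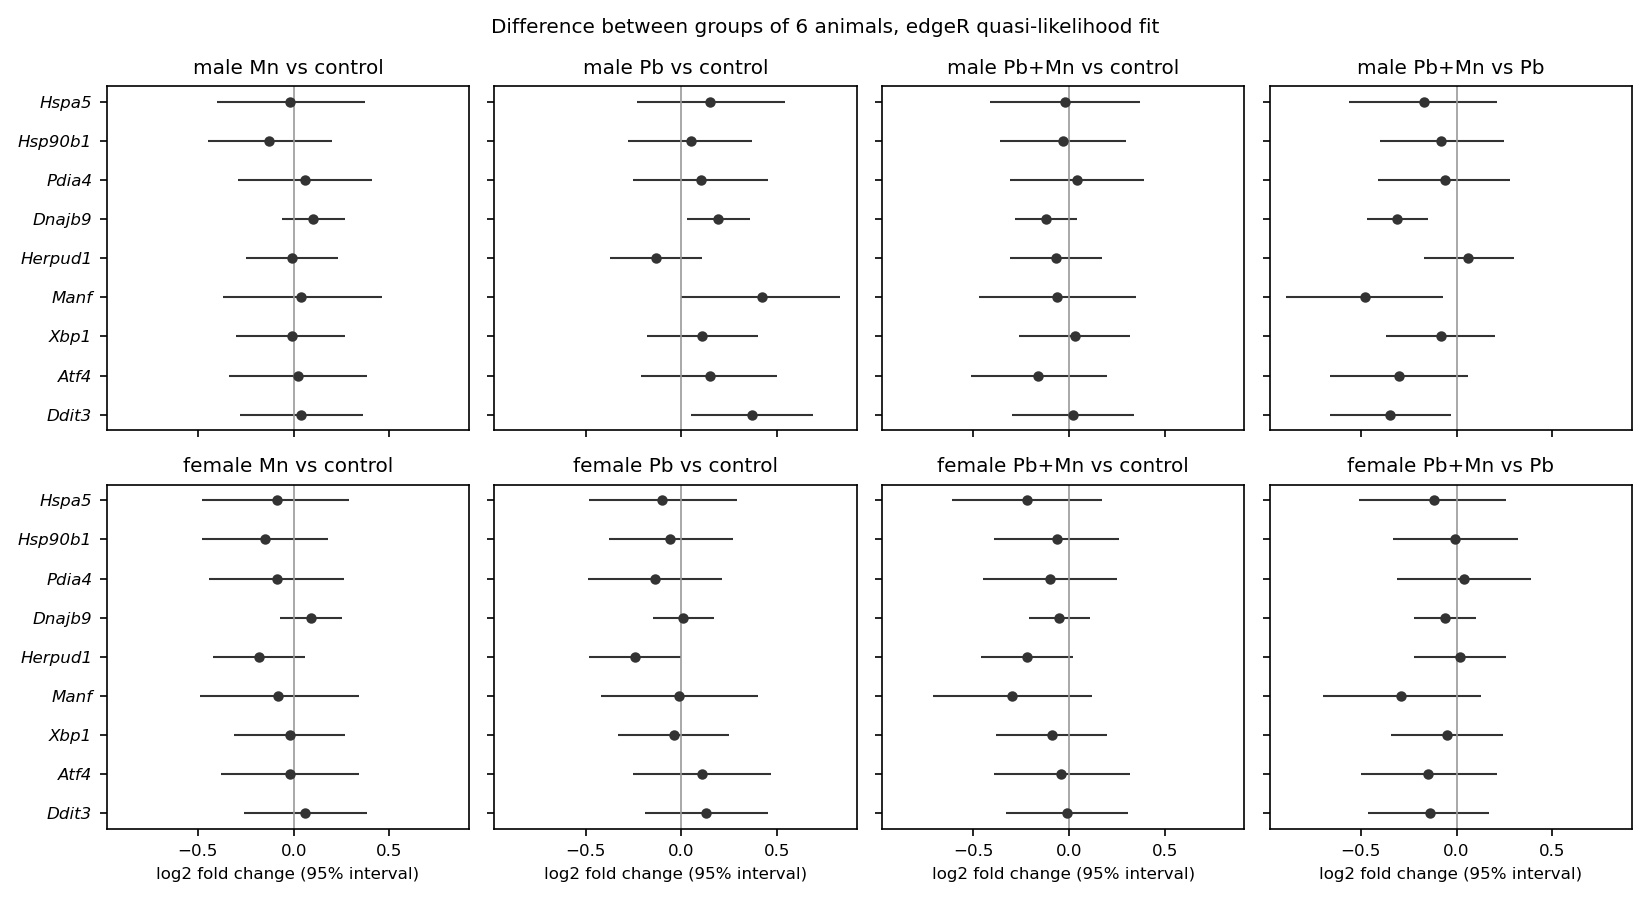
Log2 fold change (x axis) of the 9 tested genes (rows) in 8 comparisons of 6 against 6 animals, with 95% intervals from the edgeR fit. Intervals for Dnajb9 are the narrowest, and the one for male Pb+Mn against Pb runs from -0.47 to -0.15.

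In females the estimates were small and mostly negative, with medians of -0.08 for Mn, -0.04 for Pb and -0.09 for Pb+Mn, all against the same 6 controls. Herpud1 was the 1 member under an unadjusted p of 0.05, in Pb animals, where 1.25% of all genes were lower. At that threshold there was none in Mn (2.59% of all genes) or Pb+Mn animals (1.46%). Female controls had 47.5 to 66.7 CPM of Herpud1 (median 55.9) and female Pb animals 40.9 to 55.8 (median 46.5). The log2 difference was -0.24 ± 0.12, with all 6 Pb animals below the control mean and an edgeR adjusted p of 1.0. The edgeR unadjusted p was 0.049, and 0.052 without male Pb animal 6, which enters through the shared fit. It was 0.14 without female control animal 1 and 0.1 without female Pb animal 2. With the length slope as a covariate it was 0.045, and under DESeq2 0.059. In female Pb+Mn animals Herpud1 had 43.7 to 52.8 CPM, a difference of -0.22 ± 0.12. Manf there had 43.2 to 63.5 CPM against 46.0 to 106 in controls, a difference of -0.30 ± 0.21.

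Female control animal 1 stood high in all 9 members. It had 638 CPM of Hspa5 against 363 to 531 in the other 5, and 106 CPM of Manf against 46.0 to 65.0. Its length slope was -0.253, below the -0.0278 to 0.091 of the others, and 8 of 11 marker sums lay outside their range. Higher were microglia (494 CPM against 290 to 338), blood (461 against 95.5 to 223), ribosomal protein genes (2430 against 1220 to 1680), oligodendrocytes (11200 against 7430 to 10600), endothelium (227 against 184 to 219) and neurons (15500 against 11000 to 15300). Lower were choroid plexus (134 against 140 to 2220) and thalamus and habenula (155 against 162 to 655). The part of these in the high values was not tested. Without it, Manf differed from control by 0.12 in Mn, 0.20 in Pb and -0.10 in Pb+Mn females, and Herpud1 by -0.12, -0.18 and -0.17.

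Tests of the difference between sexes called no member. For lead, all 9 sex by exposure terms were negative (female minus male effect), as were 52.1% over all genes. They ran from -0.43 ± 0.29 for Manf to -0.04 ± 0.25 for Atf4, with edgeR adjusted p of 1.0. For manganese they ran from -0.17 to 0.03. Female control animal 1, high in all 9 members, enters every one of these terms. Averaged over sex and lead, all 9 estimates for manganese were negative, as were 51.3% over all genes. They ran from -0.20 ± 0.10 for Manf (adjusted p = 0.54) to -0.02 ± 0.09 for Pdia4. No member was under an unadjusted p of 0.05, where 6.62% of all genes were lower. Averaged over sex and manganese, the median for lead was 0.01.

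Animals of the same group differed in several of these genes together. Dnajb9 had a within-group SD of 0.131 log2 units, at percentile 4.3 of all genes tested, and Manf one of 0.373, at percentile 67.2. After the group means were removed from log2 CPM, Hspa5 was correlated over the 48 animals with Xbp1 at Pearson r = 0.93 (Spearman rho = 0.92). For Pdia4 r was 0.89 (rho = 0.87), for Hsp90b1 0.83 (0.81), for Manf 0.79 (0.77), for Herpud1 0.63 (0.59) and for Ddit3 0.55 (0.56). Permutation within groups gave an unadjusted p of 1e-05 for the first 4, the smallest that the permutations can give. The permutation p adjusted over 8 pairs was 2e-05 for these, 4.8e-05 for Herpud1 and 0.00077 for Ddit3. Dnajb9 (r = 0.24, rho = 0.21) and Atf4 (r = 0.20, rho = 0.24) did not pass, at a permutation adjusted p of 0.19 each.

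Leaving out male Mn animal 4 and male Pb+Mn animal 5, the animals farthest from the median, gave r of 0.89 for Xbp1, 0.86 for Pdia4, 0.80 for Hsp90b1, 0.72 for Manf, 0.56 for Herpud1 and 0.43 for Ddit3. Within single groups of 6, r of Hspa5 with Xbp1 was positive in 8 of 8 groups, from 0.78 to 0.99. It was also positive in all 8 for Pdia4 (lowest 0.72) and Hsp90b1 (lowest 0.74). For Manf, Herpud1 and Ddit3 it was positive in 7 groups, with lowest values of -0.12, -0.24 and -0.30. Atf4 was positive in 6 (-0.44 to 0.94) and Dnajb9 in 5 (-0.85 to 0.91). Over all 36 pairs of members, 34 were positive, with a median of 0.50. All these genes share each library's depth and composition.

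**Figure D3:**
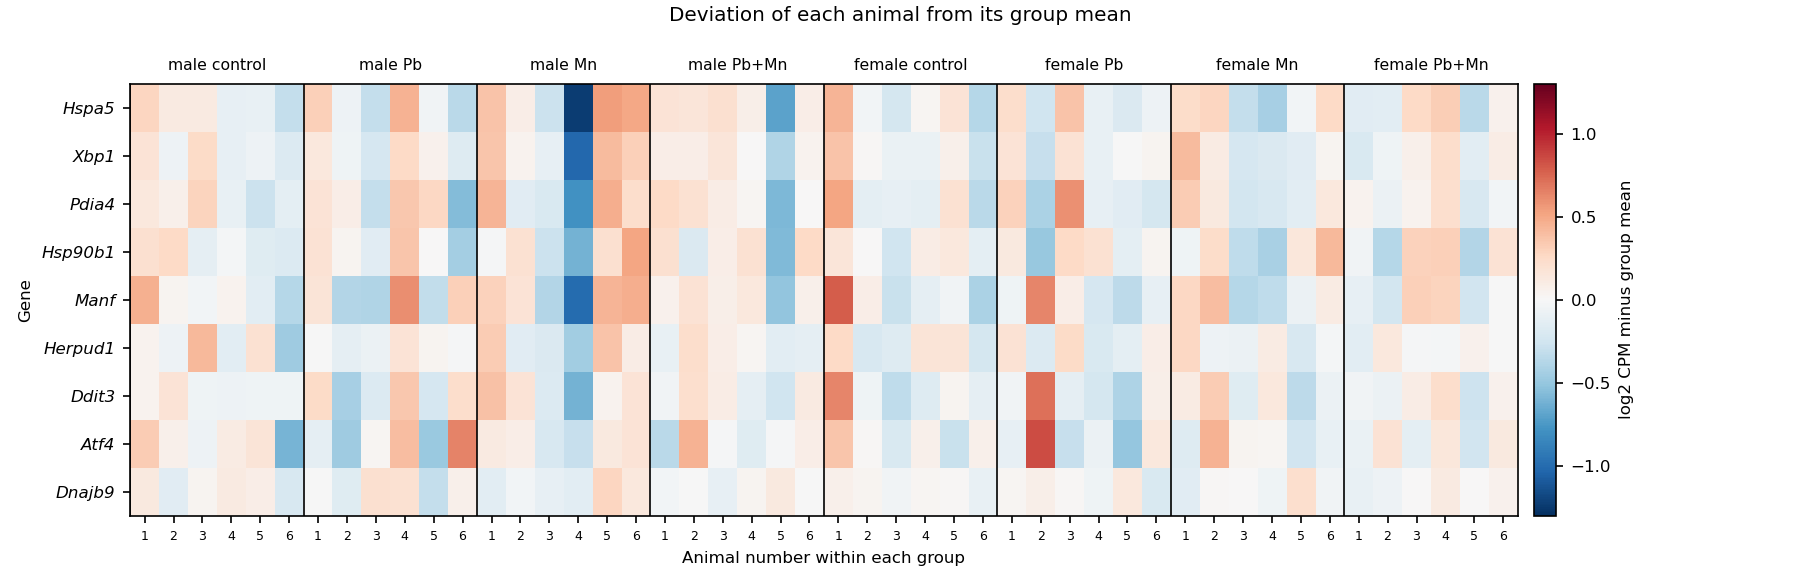
Deviation of each animal (columns, 6 in each of 8 groups) from its group mean in log2 CPM for the 9 tested genes (rows); red is above and blue below the mean. Male Mn animal 4 is low in all 9 genes, and female control animal 1 is high in all 9.

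Of 10238 genes at a mean log2 CPM of at least 3, Xbp1 was in place 1 of likeness to Hspa5, Pdia4 in place 3, Hsp90b1 in place 6 and Manf in place 12. The 5 most alike genes outside the set were the disulfide isomerase genes Pdia6 (r = 0.91) and Pdia3 (0.86), the ER calcium-binding chaperone gene Calr (0.88), Srrt (0.82) and the small heat shock gene Hspb1 (0.82). Of 15 other ER chaperone and folding genes, 9 had r over 0.5 with Hspa5, with a median of 0.71, and of all 16360 genes 0.709% did. Of 13 genes of ER-associated degradation and translocation it was 1, Derl3 (0.67), with a median of 0.11. Of 6 ER stress sensor and processing genes it was 1, Atf6b (0.53), with a median of -0.11. Among 10 cytosolic heat shock genes it was 3: Hspa8 (0.73), Dnajb1 (0.66) and Hspb1. Among 21 other targets of ATF4 and CHOP it was none, and none among the marker genes of neurons, astrocytes, oligodendrocytes, microglia, endothelium or choroid plexus. Bulk tissue cannot tell more cells of a type from more RNA per cell. Of the 18 tested genes other than Hspa5 whose window held the ERSE printed above, 6 (33.3%) had r over 0.5, with a median of 0.28: Calr, Creld2, Derl3, Dnajc3, Hsp90b1 and Pdia6. All 6 are members or genes of the lists counted above. For ERSE-II it was 2 of 9 genes (22.2%), for TGACGTGG 0 of 120 and for TGATGNAA 2 of 327 (0.612%). Over all tested genes with a window the share was 0.794%.

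Herpud1 had members among its nearest genes, with Xbp1 in place 2 (r = 0.72), Pdia4 in place 4 (0.66) and Hspa5 in place 8 (0.63). The 5 most alike genes outside the set were Dnajb1, a cytosolic HSP40 gene (r = 0.76), Ruvbl2 (0.68), Cdk2ap2, Slc9a3r2 and Abcf3 (0.64 each).

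**Figure D4:**
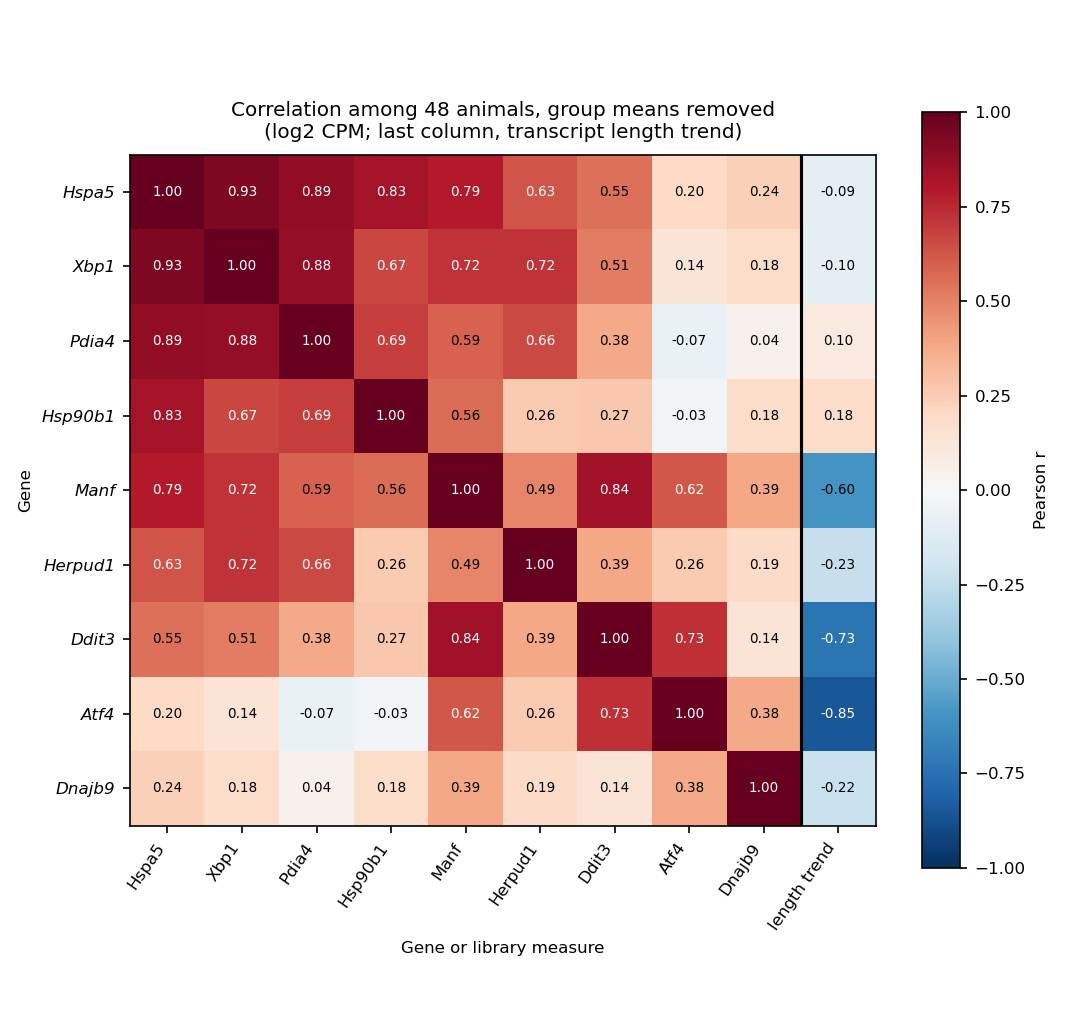
Pearson r between the 9 tested genes (rows and columns) over 48 animals with group means removed, and with the transcript length slope in the last column. Hspa5, Xbp1, Pdia4, Hsp90b1 and Manf have r of at least 0.56 with each other, and Atf4 has r = -0.85 with the length slope.

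Atf4 was correlated with the length slope but passed no test with Hspa5, while Ddit3 and Manf were correlated with both. Atf4 had r = -0.85 with the length slope (rho = -0.78), Ddit3 -0.73 (rho = -0.63) and Manf -0.60 (rho = -0.53), with permutation adjusted p over 9 members of 4.5e-05, 4.5e-05 and 0.00033. Without female Pb animal 2 and male Pb animal 6, whose slopes were farthest from the median, r was -0.77, -0.69 and -0.57. Hspa5 had r = -0.09 and Xbp1 -0.10 (adjusted p = 0.57 each). The slope was itself taken over 10206 genes of these same libraries, and the permutations tested only against no correlation. The share of all genes with so strong an r with the slope is not given. These values therefore do not show whether members followed it more closely than other genes. Female Pb animal 2 and male Pb animal 6 had the highest Atf4 levels, at 159 and 148 CPM, against 57.6 CPM in the lowest animal. The genes most like Atf4 were Pdrg1, Lsm7 and Fnta (r = 0.91 each), Rnf25 and Lsm1 (0.90 each). All 10 ribosomal protein genes listed had r over 0.5 with Atf4, as 17.7% of all genes did, and none of 21 other targets of ATF4 and CHOP had. With the slope removed, r of Hspa5 with Manf was 0.94 and with Ddit3 0.71, and with Atf4 0.23.

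**Figure D5:**
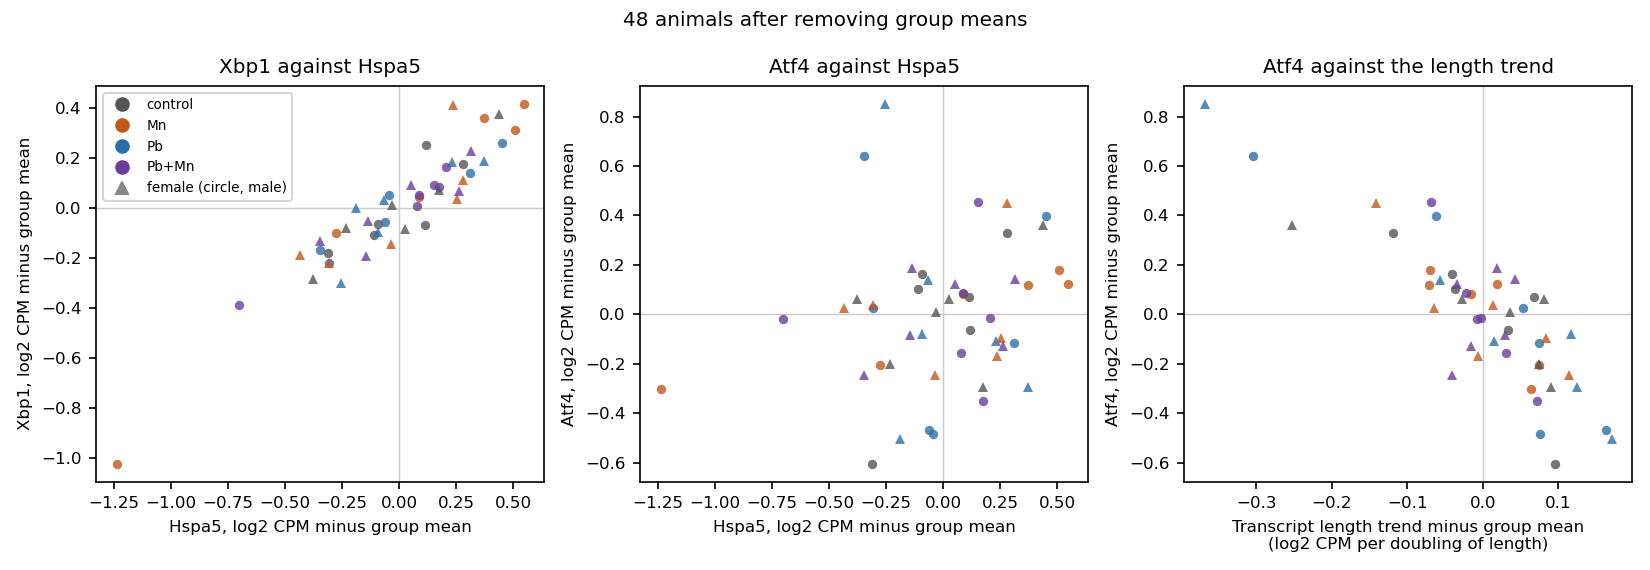
Each point is 1 of 48 animals after removal of group means (log2 CPM, circles males and triangles females): Xbp1 against Hspa5, Atf4 against Hspa5, and Atf4 against the transcript length slope. The r values are 0.93, 0.20 and -0.85.

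The wider pathway gave no call either. Of 72 genes in 6 lists, 71 were tested and edgeR called 0 in all comparisons. The lists were ER stress sensors and processing, other ER chaperones, ER-associated degradation, stress response regulators, other ATF4 and CHOP targets, and cytosolic heat shock. At an unadjusted p under 0.05, 24 of 1349 tests were higher and 23 lower, where 2.33% of tests over all genes were higher and 2.65% lower. Edem1, a mannosidase-like factor of ER-associated degradation, had 21.7 ± 2.03 CPM in male Mn animals and 17.9 ± 1.91 in controls (SD, n = 6), with all 6 above the control mean. The log2 difference was 0.28 ± 0.10 (edgeR unadjusted p = 0.0077, adjusted p = 1.0). Eif2ak2, the kinase gene activated by double-stranded RNA, had 6.99 ± 0.558 CPM in female Pb animals and 9.95 ± 3.17 in controls. Its difference was -0.51 ± 0.14 (edgeR unadjusted p = 0.00088, adjusted p = 1.0). Over the 6 comparisons of an exposure with control, the lowest p of each other list was that of Hspe1 (0.74 ± 0.29), Sdf2l1 (0.63 ± 0.32) and the sensor gene Ern1 (-0.27 ± 0.14) in male Pb against control, and of Atf5 (-0.36 ± 0.18) in female Mn against control. Their adjusted p ran from 0.40 to 1.0. Outside those 6 comparisons, male Pb+Mn against Pb had 3 of 6 sensor and processing genes higher at an unadjusted p under 0.05. There 3 of 15 other ER chaperone genes were lower. Of all 16360 genes, 3643 were under it in either direction, and 2272 (13.9%) were lower.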

How the data were processed

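Per the labels' protocols, stranded poly(A) libraries were sequenced as paired reads. The authors deposited whole-number counts per gene, unnormalized. Per the submitters' processing notes, tools included Trim Galore 0.6.9, STAR 2.7.10b and featureCounts 2.0.6 with GRCm39. Strand and multi-mapping settings are not given in the sources used here.

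Groups came from the labels. The test was edgeR 4.0.16 (glmQLFit, glmQLFTest, two-sided) in R 4.3.3 with TMM, filterByExpr and 1 fit of 48 libraries, checked on simulated counts. SE is the log2 fold change over the root of F. Log2 CPM used a prior count of 2. Correlations used 100000 permutations within groups. Trib3 fell under the filter, so 8 pairs with Hspa5 were tested, not 9. Named genes were the members, the genes most alike Hspa5, Herpud1 and Atf4, and the lowest-p gene of each wider list over the 6 comparisons of an exposure with control. Members and lists were chosen with earlier results of these data known.

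GENCODE M21 (GRCm38) gave names and transcript lengths, never coordinates. Lengths were first medians over all transcripts, which made Manf 545 bases long. They were changed to the basic set after those values had been seen, and the first definition is kept as an alternative. Alternatives were DESeq2 1.42.0, limma 3.58.1 voom, RLE scaling, no filter, only the groups compared, a replicate block, the length slope, and each animal left out. Replicate numbers did not pair animals.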

Additional observations from a re-analysis of the deposited data

Results flagged for a closer look

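In 10 of 80 sets of 6 animals, 1 animal stood far from the other 5 by Dixon's test, which flags about 1 set in 20 by chance, and sets of the same animal are not independent. Male Pb+Mn animal 5 was low in 4 genes. It had 262 CPM of Hspa5 against 448 to 490 in the others, 41.1 of Pdia4 against 62.0 to 73.5, 38.3 of Manf against 56.8 to 62.0 and 66.4 of Xbp1 against 87.2 to 97.3. Female Pb animal 2 was high, with 159 CPM of Atf4 against 61.9 to 96.8, 95.8 of Manf against 48.9 to 65.4 and 34.4 of Ddit3 against 15.7 to 21.9. Female control animal 1 was high, with 106 CPM of Manf against 46.0 to 65.0 and 29.9 of Ddit3 against 15.3 to 19.7. Female Mn animal 2 had 114 CPM of Atf4 against 70.1 to 85.4.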

How the results depend on the processing

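Of 557 counts of called members over all comparisons and alternatives, 554 were 0. The other 3 concern male Pb+Mn against Pb, where Dnajb9 was the 1.0 member called: under DESeq2 (-0.32), and, with a range of 1.0 to 1.0 called members, without male Pb animal 2 (-0.36, adjusted p = 0.036) or animal 5 (-0.38, adjusted p = 0.031). These leave-outs also called 1047 of 16483 and 1129 of 16494 genes tested, and DESeq2 326 of 11602. The cause was not tested. Leaving out male Pb animal 6 gave -0.31 with an adjusted p of 0.61. Of 5013 alternative values of single members, 348 changed sign, none of them called. All 72 alternative correlations with Hspa5 stayed on the same side of 0. That of Ddit3 ran from 0.43 without the 2 farthest animals to 0.71 with the slope removed. The replicate block called 0.0 members in each comparison; across 28 pairs of groups, the mean correlation of same-numbered animals had a median of 0.008. The all-transcript length definition, added after the data were seen, moved the length slope correlations by at most 0.01 and no call, but changed the order of levels per kilobase. Depth limits Trib3, and 6 animals a group limit the rest, with a median SE of 0.16 for a log2 difference from control.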
